A study of Mus musculus with 2 samples.

Results

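The Wnt pathway genes described here are 53 protein-coding genes that encode Wnt ligands, their receptors, secreted antagonists and the proteins that carry the signal to the nucleus. They were chosen by symbol: every gene named Wnt, Fzd, Sfrp, Dkk or Dvl with a number, and Lrp5, Lrp6, Porcn, Wls, Axin1, Axin2, Lef1, Tcf7, Tcf7l2, Rnf43, Znrf3, Lgr4 and Lgr5. All 53 had a row in both count files, among 21551 protein-coding genes and 43629 genes in all.

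Wnt proteins are secreted ligands that carry a lipid, and they bind Frizzled receptors together with the co-receptors Lrp5 or Lrp6. Without a ligand, a destruction complex built on Axin and Apc marks β-catenin for degradation. Binding recruits Dishevelled and Axin to the membrane, β-catenin builds up, and in the nucleus it works with TCF/LEF factors at target genes. In mouse embryonic stem (ES) cells this signal is known to support self-renewal, and inhibitors of the kinase Gsk3 are used in culture to imitate it.

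Poly-A selected RNA came from Drosha knockout mouse ES cells of the 129/Ola background, grown untreated in serum plus LIF, a cytokine that keeps mouse ES cells undifferentiated, and taken at passage 7. Drosha is the nuclear enzyme that cuts microRNA hairpins out of their primary transcripts, and the knockout was made with paired CRISPR/Cas9 guides, per the series title. There was 1 group with 2 libraries, A and B, and cells of another genotype were not analysed here, so the levels below say nothing of a change caused by the loss of Drosha. The titles differ in a number, 1 or 2, but both samples carry the same source name, so it is not settled whether A and B are separate lines, and separate cultures are not stated. Drosha itself had 4865 reads in A and 7023 in B, and a total over all exons cannot show whether a stretch is missing, so it does not check the knockout label.

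Library A held 29264632 reads assigned to genes and library B 42322129, so a level in B rests on more reads. Levels are given as CPM (counts scaled to library size, by TMM) or, where genes are compared with each other, as TPM (which also divides by exon length), each as mean ± SD of both libraries (n = 2). With n = 2 an SD can fall well below counting error, so a small SD does not make a level precise. For a gene with 0 reads, 3 counts set the upper limit, 0.102 CPM in A and 0.0711 CPM in B, and such limits cover counting error only. All 8 ES cell markers were at 1 CPM or more in both libraries, led per length by Dppa5a at 10136 ± 263 TPM, and Pou5f1 had 1399 ± 33.0 TPM. Markers of other cell types at 1 CPM or more in both libraries were 8 of 15 for fibroblasts, 2 of 8 for primitive and visceral endoderm, 3 of 7 for mesoderm, 4 of 6 for neural cells and 2 of 6 for trophectoderm. In bulk RNA, fewer cells of a type and less RNA per cell cannot be told apart. The fibroblast list summed to 1614 CPM in A and 1598 CPM in B, mostly from Fn1, and to 92.2 CPM in A and 86.8 CPM in B without it.

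Most ligand genes had few reads, and most of the other genes of the pathway were present. In all, 34 of the 53 genes, or 64.2%, reached 1 CPM in both libraries, against 57.8% of all protein-coding genes. Of the 19 ligands 5 did, and of the other 34 genes 29 did. The median of the genes' mean levels was 1.54 TPM over the 53 genes and 2.68 TPM over all protein-coding genes. Within single libraries the median of the 53 genes was 1.42 TPM in A and 1.53 TPM in B. That of all protein-coding genes was 2.71 TPM in A and 2.64 TPM in B. For the 34 genes that are not ligands the median of the mean levels was 5.20 TPM. These medians include genes with no reads. The 53 genes together held 0.112% of the reads in A and 0.112% in B.

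**Figure D1:**
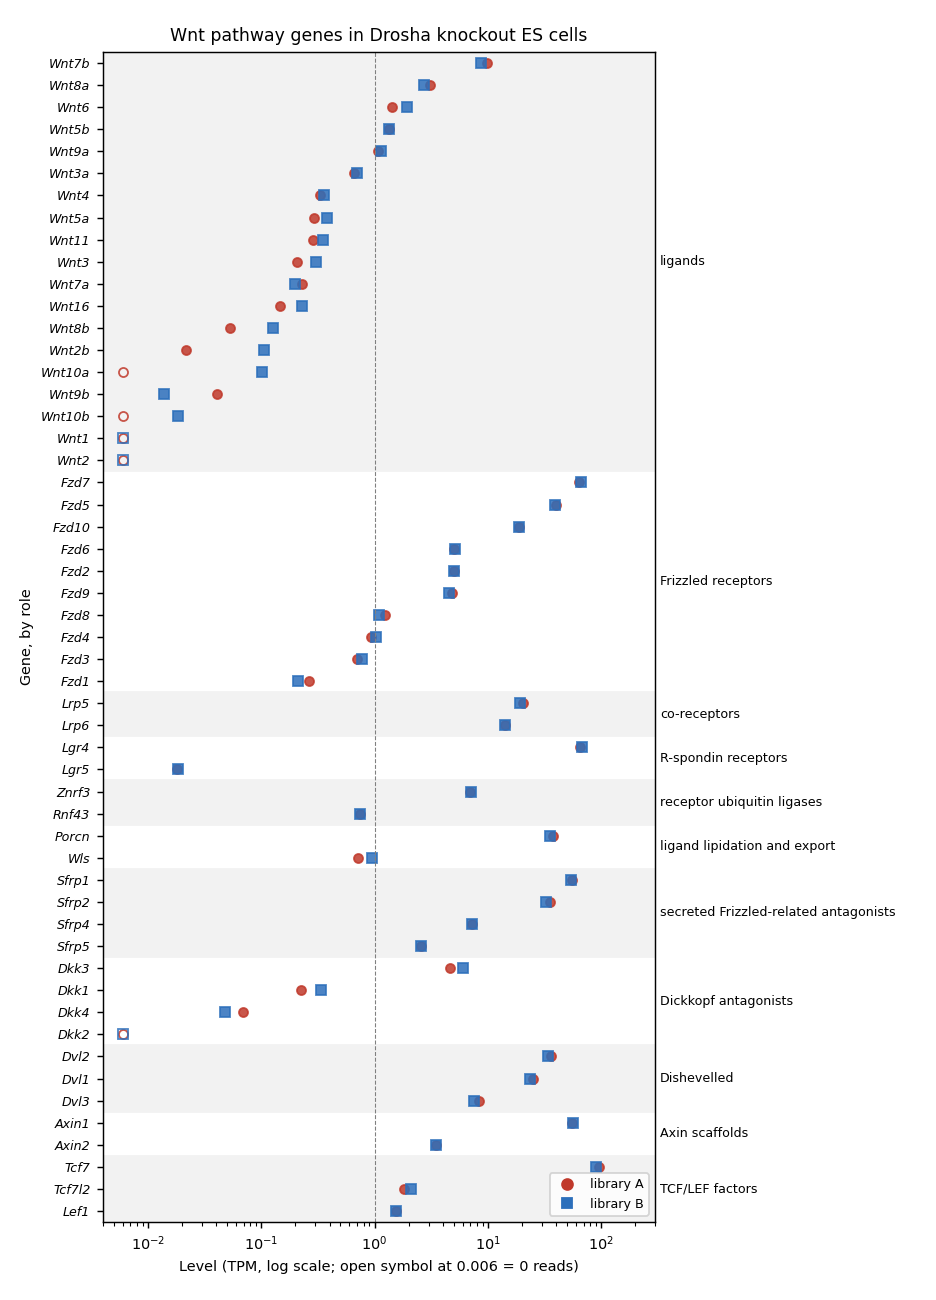
Level of each of the 53 genes in TPM (log scale) in library A (circles) and library B (squares), grouped by role, with the highest gene of each role on top; open symbols stand for 0 reads and the dashed line marks 1 TPM. Tcf7, Lgr4, Fzd7, Axin1 and Sfrp1 lie between 54.6 and 93.3 TPM, whereas Wnt1, Wnt2 and Dkk2 had no reads.

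Ligand transcripts were led by 1 gene. Wnt7b (ENSMUSG00000022382, chromosome 15, 85535437 to 85582473), a ligand best known from lung, kidney and brain development, had 531 reads in A and 678 reads in B, or 17.1 ± 1.44 CPM. It made up 49.1% ± 3.90 of the summed ligand level of 18.9 ± 0.263 TPM. Next in order of level was Wnt8a, a ligand of the early mouse embryo, with 59 reads in A and 76 reads in B and 2.91 ± 0.253 TPM, against 9.31 ± 0.868 TPM for Wnt7b. Both were higher in A, with 9.92 TPM in A and 8.70 TPM in B for Wnt7b, and 3.09 TPM in A and 2.73 TPM in B for Wnt8a. The ranges of Wnt7b and Wnt8a did not overlap.

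The other ligands at 1 CPM or more in both libraries were Wnt6, Wnt5b and Wnt9a. Wnt6 had 34 reads in A and 68 reads in B (1.38 ± 0.320 CPM), Wnt5b had 39 reads in A and 57 reads in B (1.34 ± 0.0148 CPM) and Wnt9a had 39 reads in A and 60 reads in B (1.38 ± 0.0650 CPM). Wnt6 was the ligand of these with the wider gap between the libraries, and B was the higher one. Wnt5a, a ligand known for signalling that does not pass through β-catenin, reached 1 CPM in B only, with 25 reads in A and 47 reads in B (0.983 ± 0.185 CPM).

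Wnt3a, the ligand most used to activate β-catenin signalling in cultured cells, had 20 reads in A and 31 reads in B (0.708 ± 0.0372 CPM). Wnt3, which the mouse embryo needs for the primitive streak, had 7 reads in A and 15 reads in B (0.297 ± 0.0825 CPM). Wnt4 and Wnt11 had 0.540 ± 0.0405 CPM and 0.494 ± 0.0719 CPM. All 4 of these ligands lay below 1 CPM in both libraries. Wnt7a, Wnt16, Wnt8b and Wnt2b had between 1 and 8 reads in A and between 7 and 16 in B. Wnt10a had 0 reads in A and 4 in B, Wnt10b 0 and 1, and Wnt9b 2 and 1. Wnt1 and Wnt2 had 0 reads in both libraries, which allows up to 0.102 CPM in A and 0.0711 CPM in B.

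Ligand genes that lie next to each other in the genome were compared. Among the 53 genes, 4 pairs were less than 100 kb apart, all of them ligand pairs. Wnt6 and Wnt10a lie 6.19 kb apart on chromosome 1 (74771892 to 74785322 and 74791516 to 74804179, GRCm38), with 1.68 ± 0.374 TPM for Wnt6 and 0.0509 ± 0.0720 TPM for Wnt10a. On chromosome 11, Wnt9a (59306928 to 59333552) and Wnt3a (59248033 to 59290752), 16.2 kb apart on opposite strands, had 1.10 ± 0.0424 TPM and 0.684 ± 0.0299 TPM. The chromosome 11 pair Wnt3 (103774150 to 103817957) and Wnt9b (103727364 to 103749821), 24.3 kb apart, had 0.257 ± 0.0693 TPM and 0.0272 ± 0.0188 TPM. On chromosome 15, Wnt1 (98789857 to 98793837) and Wnt10b (98770712 to 98778150) are 11.7 kb apart, and the pair held 1 read over both libraries. In 3 of the 4 pairs the same gene was the higher one in both libraries, Wnt6, Wnt9a or Wnt3, and the fourth pair had too few reads to rank.

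Making a Wnt active requires Porcn, the enzyme of the endoplasmic reticulum that attaches the lipid, and Wls, the membrane protein that carries the lipidated ligand to the cell surface. Porcn (ENSMUSG00000031169, chromosome X, 8193848 to 8206525) had 1222 reads in A and 1698 reads in B, or 36.4 ± 1.22 TPM. Wls had 68 reads in A and 134 reads in B, or 0.833 ± 0.176 TPM, and 1.67 ± 0.355 TPM with the length of its longest transcript. Per length, Porcn made up 97.8% ± 0.537 of the summed level of both genes, in A and in B alike.

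Of the 10 Frizzled receptors, 9 reached 1 CPM in both libraries, and their summed level of 141 ± 0.619 TPM was the highest of the 11 roles. Fzd7 (ENSMUSG00000041075, chromosome 1, 59482424 to 59486955), the Frizzled most often linked to Wnt signalling in pluripotent cells, had 3180 reads in A and 4772 reads in B, or 65.2 ± 1.36 TPM. Fzd5 had 3013 reads in A and 4316 reads in B, or 39.5 ± 0.475 TPM, and Fzd10 669 reads in A and 965 reads in B, or 18.7 ± 0.133 TPM. Fzd7 held 46.1% ± 0.761 of the Frizzled level, Fzd5 28.0% ± 0.458 and Fzd10 13.3% ± 0.152, and the ranges of these receptors did not overlap.

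The remaining Frizzled genes lay far lower. Fzd6, Fzd2 and Fzd9 had 5.07 ± 0.109 TPM, 5.02 ± 0.0401 TPM and 4.66 ± 0.191 TPM. The ranges of Fzd6 and Fzd2 overlapped, and that of Fzd9 lay below both. Fzd9 rests on 120 reads in A and 165 reads in B, and its place was not tested against counting error. Fzd8, Fzd4 and Fzd3 had 1.17 ± 0.0968 TPM, 0.977 ± 0.0722 TPM and 0.735 ± 0.0493 TPM. Fzd1 was the Frizzled below 1 CPM, with 12 reads in A and 14 reads in B.

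Both co-receptors reached 1 CPM in both libraries. Lrp5 had 2169 reads in A and 2954 reads in B, or 19.7 ± 0.941 TPM, and Lrp6 had 2096 reads in A and 3077 reads in B, or 14.1 ± 0.0753 TPM. Per merged exon length Lrp5 was the higher in each library and the ranges did not overlap. With the length of the longest transcript in its place the gap was small, with 17.5 ± 0.813 TPM for Lrp5 and 16.7 ± 0.110 TPM for Lrp6, while in CPM their values were 72.0 ± 2.80 CPM and 72.2 ± 1.02 CPM, since the annotated exons of Lrp6 cover 13672 bases and those of Lrp5 9738.

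The R-spondin receptors among the 53 genes stood far apart. R-spondins are secreted proteins that raise Wnt signalling by binding Lgr receptors and removing the ubiquitin ligases Rnf43 and Znrf3, which otherwise take Frizzled receptors off the surface. Lgr4 (ENSMUSG00000050199, chromosome 2, 109917647 to 110014257) had 4143 reads in A and 6300 reads in B, or 65.9 ± 1.99 TPM, the second-highest level of the 53 genes. Lgr5, a marker of stem cells in the adult gut, had 2 reads in A and 3 reads in B, or 0.0181 ± 3.72e-04 TPM (0.0314 TPM with the length of its longest transcript). Lgr6, a further Lgr gene, is not among the 53 and was named after its values were seen. It had 92 reads in A and 122 reads in B, or 1.17 ± 0.0781 TPM, between Lgr4 and Lgr5. Of the ligases, Znrf3 had 597 reads in A and 887 reads in B (6.99 ± 0.0967 TPM) and Rnf43 had 53 reads in A and 77 reads in B (0.739 ± 0.00149 TPM). The SD of Rnf43 is also below counting error, with an interval of -0.55 to 0.51 for its log2 ratio.

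Secreted antagonists were represented mainly by the Sfrp family, whose proteins resemble the ligand-binding part of Frizzleds and bind Wnts outside the cell. Sfrp1 (ENSMUSG00000031548, chromosome 8, 23411502 to 23449632) had 2650 reads in A and 3743 reads in B, or 54.6 ± 1.20 TPM. Sfrp2 had 825 reads in A and 1110 reads in B, or 33.7 ± 1.90 TPM. Sfrp4 had 7.21 ± 0.0559 TPM and Sfrp5 2.57 ± 0.0182 TPM, so all 4 genes reached 1 CPM in both libraries. Their summed level was 98.1 ± 3.14 TPM, beside 18.9 ± 0.263 TPM for all 19 ligands.

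Dickkopf genes were low apart from Dkk3. Dkk1, the antagonist that binds Lrp6, had 6 reads in A and 13 reads in B (0.256 ± 0.0731 CPM), Dkk4 had 1 read in each library and Dkk2 had 0 in both. Dkk3, a divergent member of the family, had 170 reads in A and 322 reads in B, or 6.71 ± 1.30 CPM. Its level was the higher one in B.

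Dishevelled proteins, which pass the signal from Frizzled to the destruction complex, were encoded by transcripts of all 3 genes. Dvl2 had 2466 reads in A and 3399 reads in B, or 34.9 ± 1.37 TPM, Dvl1 had 1373 reads in A and 1885 reads in B, or 24.4 ± 1.03 TPM, and Dvl3 had 581 reads in A and 775 reads in B, or 7.95 ± 0.496 TPM. The 3 ranges did not overlap. Exons of Dvl2 share 1151 bases with genes on the opposite strand, and how featureCounts treated strand is unknown here (the labels call the protocol reverse-stranded), so its value is uncertain. The same holds, over fewer or similar bases, for Fzd5, Lef1, Wnt11, Wnt5a, Sfrp2, Wnt7b, Axin2, Fzd6 and Dvl1.

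The Axin scaffolds differed widely. Axin1 (ENSMUSG00000024182, chromosome 17, 26138688 to 26195811), the general scaffold of the destruction complex, had 2293 reads in A and 3448 reads in B, or 55.7 ± 1.24 TPM. Axin2, which can replace it and is a direct target of β-catenin signalling, had 210 reads in A and 306 reads in B, or 3.49 ± 2.70e-04 TPM. Axin1 held 94.1% ± 0.123 of the summed level of both.

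Among the TCF/LEF factors, Tcf7 (ENSMUSG00000000782, chromosome 11, 52252371 to 52283014) had the highest level of all 53 genes, with 2748 reads in A and 3794 reads in B, or 93.3 ± 3.55 TPM. Tcf7l2 had 174 reads in A and 295 reads in B (1.96 ± 0.210 TPM) and Lef1 149 reads in A and 214 reads in B (1.54 ± 0.0156 TPM). With the length of the longest transcript these were 3.76 ± 0.407 TPM for Tcf7l2 and 3.001 ± 0.0267 TPM for Lef1. Tcf7 made up 96.4% ± 0.326 of the level of these 3 factors, or 92.2% with that length. The fourth factor of the family, Tcf7l1, which represses pluripotency genes in mouse ES cells, is not among the 53 and was picked after its values were seen; it had 35.3 ± 1.91 TPM, between Tcf7 and Tcf7l2.

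**Figure D2:**
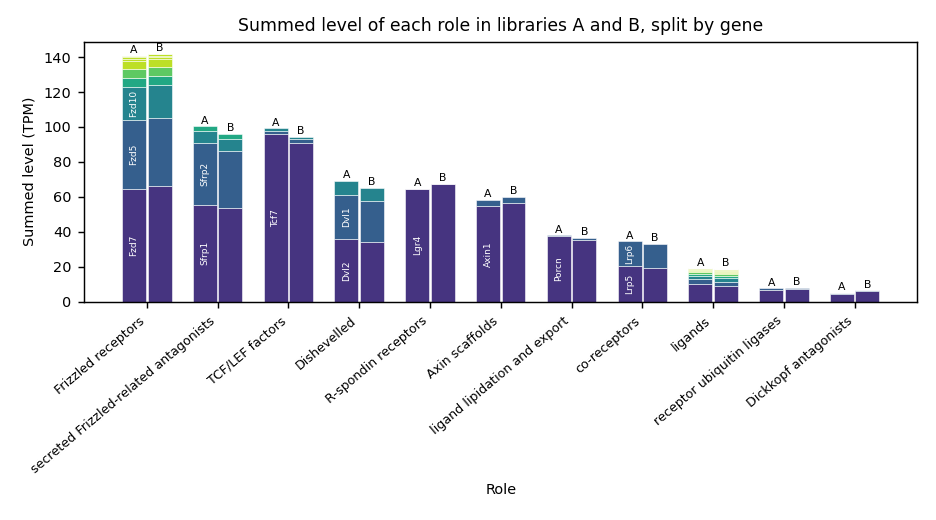
Summed level of each role in TPM, in library A (left bar of each pair) and library B (right bar), split by gene with the highest gene at the bottom. The Frizzled receptors sum to 141 TPM and the ligands to 18.9 TPM.

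Put in order of mean TPM, Tcf7 came first, followed by Lgr4, Fzd7, Axin1, Sfrp1, Fzd5, Porcn, Dvl2, Sfrp2 and Dvl1. Neighbours in that order overlapped in their ranges over A and B in 29 of 52 pairs. These include pairs of genes with 0 reads, which overlap by definition, and ranges can overlap though 1 gene is higher in each library. In the upper part a smaller share overlapped, 6 of the 19 pairs among the top 20 genes. Among the top 10, the neighbours with overlapping ranges were Lgr4 and Fzd7, Axin1 and Sfrp1, Porcn and Dvl2, and Dvl2 and Sfrp2. Within each library all of these but Axin1 and Sfrp1 kept the same order. The place of Fzd5 depended on the length used. With the length of the longest transcript it had 32.0 ± 0.345 TPM, below Porcn at 33.8 ± 1.09 TPM and Dvl2 at 35.3 ± 1.34 TPM.

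Genes of the pathway outside the 53 were taken from lists of known members. Of 14 genes of the destruction complex and its regulators 13 reached 1 CPM in both libraries, against 57.8% of all protein-coding genes. The list's median was 25.9 TPM. The highest per length were Ctnnb1, which encodes β-catenin itself, at 487 ± 6.50 TPM, the kinase gene Csnk1a1 at 129 ± 0.882 TPM and Tnks2, a tankyrase that marks Axin for degradation, at 117 ± 2.46 TPM. Of 12 nuclear partners all did, with a median of 26.7 TPM, led by the co-repressor Tle4 at 69.1 ± 1.72 TPM, the β-catenin antagonist Cby1 at 67.6 ± 5.76 TPM and the co-activator Pygo2 at 40.5 ± 0.291 TPM.

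Receptors and planar polarity genes outside the β-catenin branch were all above the threshold, 14 of 14, with a median of 8.19 TPM. Ptk7, Ryk and Vangl1 led them with 68.9 ± 1.98 TPM, 46.5 ± 1.23 TPM and 41.9 ± 1.22 TPM. Of the secreted and membrane modulators 10 of 19 passed that level, near the 57.8% of all protein-coding genes, and the list's median was 1.17 TPM. The glypican gene Gpc3 had 57.2 ± 0.678 TPM, Notum, an enzyme that strips the lipid from Wnts, 40.4 ± 2.64 TPM, and Gpc4 37.6 ± 1.00 TPM. Of the R-spondin genes, named after their values were seen, Rspo1 had 4.67 ± 0.670 CPM and Rspo4 0.857 ± 0.296 CPM, while Rspo2 and Rspo3 had between 3 and 4 reads in each library.

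Of 15 reported targets of β-catenin outside the 53, 9 reached 1 CPM in both libraries, near the 57.8% of all protein-coding genes. These 9 were led by the cyclin gene Ccnd1 at 109 ± 2.68 TPM, Myc at 50.1 ± 0.482 TPM and Notum. The other 6 were Mixl1, Sp5, Cdx4, Cdx2, Sp8 and T, the last of which marks the primitive streak and had 4 reads in A and 7 in B. The median of the 15 was 1.83 TPM.

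MicroRNAs pair with mRNAs through their seed, bases 2 to 8, and the families below depend on Drosha. Being listed here does not mean that a family is abundant in ES cells, and microRNA levels were not measured. The mature sequences below, from RefSeq on GRCm38.p6 and 5′ to 3′ with the seed in capitals, show the 4 seeds that were looked for in the annotated 3′ UTRs.
miR-291a-3p: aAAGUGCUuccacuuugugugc
miR-294-3p: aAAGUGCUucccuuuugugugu
miR-295-3p: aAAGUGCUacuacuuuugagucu
miR-17-5p: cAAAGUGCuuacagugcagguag
miR-93-5p: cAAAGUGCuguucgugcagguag
miR-92a-3p: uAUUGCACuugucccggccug
let-7g-5p: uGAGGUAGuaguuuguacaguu
The first 3 belong to the miR-290 cluster and share their seed with the miR-302 family; the seed of miR-17-5p and miR-93-5p is nearly the same stretch shifted by 1 base, so their matches, AGCACTT and GCACTTT in DNA letters, overlap in an AGCACTT followed by T.

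A 7-base match to the miR-290 and miR-302 seed, AGCACTT, was found in the 3′ UTRs of 14 of the 53 genes. Of the 34 genes at 1 CPM or more in both libraries 10 held it, or 29.4%, against 15.4% of 12438 protein-coding genes at that level with an annotated coding transcript. Longer UTRs hold more matches of any kind, and the median length was 1624 bases for those 34 genes and 932 for the 12438. The 10 genes were Tcf7, Lgr4, Fzd10, Wnt7b, Sfrp4, Znrf3, Lef1, Fzd8, Wnt9a and Fzd3. A match is a description of the sequence and does not show that it is used.

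The longer 8-base match, which adds an A after the 7 bases, occurred in 5 of the 34 genes, or 14.7%, and in 3.15% of the 12438. These 5 were Lgr4, Wnt7b, Znrf3, Fzd8 and Fzd3. The sites of 4 of them are shown with the 8 bases in capitals and 11 bases before them, from the GENCODE transcripts on GRCm38.
Lgr4: taatgactcaaAGCACTTAaattgatttt
Wnt7b: ctctggaggggAGCACTTAgccccaataa
Znrf3: atttctcccatAGCACTTAatattttgta
Fzd3: gtgtcagcagaAGCACTTActatgaaatc
They begin at base 998 of 1730 after the stop codon in Lgr4, 1914 of 1948 in Wnt7b, 3010 of 3400 in Znrf3 and 7296 of 10270 in Fzd3. The 8 bases are the same in all 4 because they were searched for, and the flanking bases differ. The genes hold quite different levels, with 65.9 ± 1.99 TPM for Lgr4, 9.31 ± 0.868 TPM for Wnt7b, 6.99 ± 0.0967 TPM for Znrf3 and 0.735 ± 0.0493 TPM for Fzd3.

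The other seeds had fewer matches in the 34 expressed genes. The let-7 match CTACCTC was in 6 of them, or 17.6%, against 9.43% of the 12438 genes, and those 6 were Lgr4, Dvl3, Dkk3, Wnt9a, Fzd4 and Fzd3. In 5 of the 34, or 14.7%, the let-7 match had 8 bases, against 3.20% of the 12438. The miR-17 match was in 4, or 11.8% against 13.2%, and the miR-25 and miR-92 match GTGCAAT in 2, Fzd10 and Dkk3, or 5.88% against 6.46%. Dkk1 held none of the 4 matches.

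**Figure D3:**
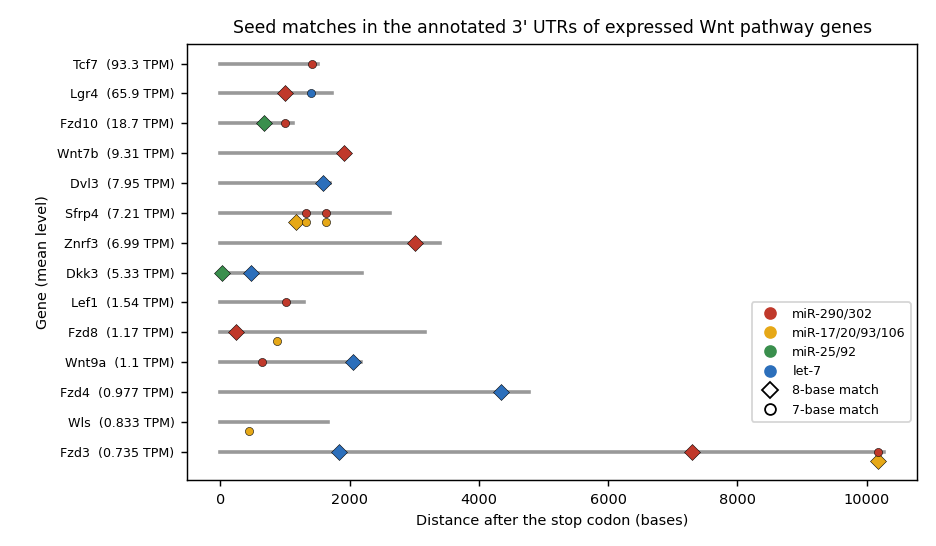
Seed matches along the annotated 3′ UTRs, as distance after the stop codon in bases, for the genes at 1 CPM or more that hold at least 1 match, ordered by level; colours mark the microRNA family, diamonds an 8-base and circles a 7-base match, and miR-17 family matches are drawn slightly lower so that overlapping ones can be seen. Fzd3 has the longest UTR, 10270 bases, and Lgr4 and Wnt7b are the most abundant genes with an 8-base match to the miR-290 seed.

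Promoters of pathway genes with few or no reads were rich in CpG, the dinucleotide that is the target of DNA methylation. RefSeq promoter windows of 300 bases, 250 before and 50 after the start, were matched for 35 of the 53 genes, in 44 windows. The 16 windows of the 15 genes that missed 1 CPM in a library held a median of 25 CpG, with a range of 6 to 51. The 28 windows of the 20 genes at 1 CPM or more held a median of 21.5, with a range of 3 to 58. A gene with several windows enters with each of them, so these are medians of windows and not of genes. Lef1, Wnt5b, Rnf43 and Tcf7l2 enter with windows of 3 to 8 CpG beside richer ones, which lowers the median of 21.5. The order of 25 and 21.5 therefore does not rank the genes. Over all protein-coding genes the medians were 4 for 7317 windows of genes that missed that level and 20 for 12614 windows of genes that reached it. Fzd7 and Wnt1 show this with windows on GRCm38.p6 given 5′ to 3′ on the plus strand, with each CpG in capitals. The first lies at chr1:59481897-59482196 and the second at chr15:98789607-98789906.
Fzd7: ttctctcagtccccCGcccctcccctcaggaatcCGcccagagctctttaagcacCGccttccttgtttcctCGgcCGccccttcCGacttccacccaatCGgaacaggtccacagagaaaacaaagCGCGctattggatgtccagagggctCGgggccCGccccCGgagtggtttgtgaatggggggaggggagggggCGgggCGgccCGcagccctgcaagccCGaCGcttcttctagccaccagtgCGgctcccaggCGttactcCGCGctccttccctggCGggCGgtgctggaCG
Wnt1: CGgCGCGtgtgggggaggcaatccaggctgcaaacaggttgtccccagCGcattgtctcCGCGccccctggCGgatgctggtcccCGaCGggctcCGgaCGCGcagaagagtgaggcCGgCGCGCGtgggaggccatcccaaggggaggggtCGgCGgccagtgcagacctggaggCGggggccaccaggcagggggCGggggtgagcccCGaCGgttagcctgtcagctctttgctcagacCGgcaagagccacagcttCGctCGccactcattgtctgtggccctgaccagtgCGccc
The Fzd7 window holds 24 CpG and the gene had 3180 reads in A and 4772 reads in B, while the Wnt1 window holds 26 CpG and the gene had 0 reads in both libraries.

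**Figure D4:**
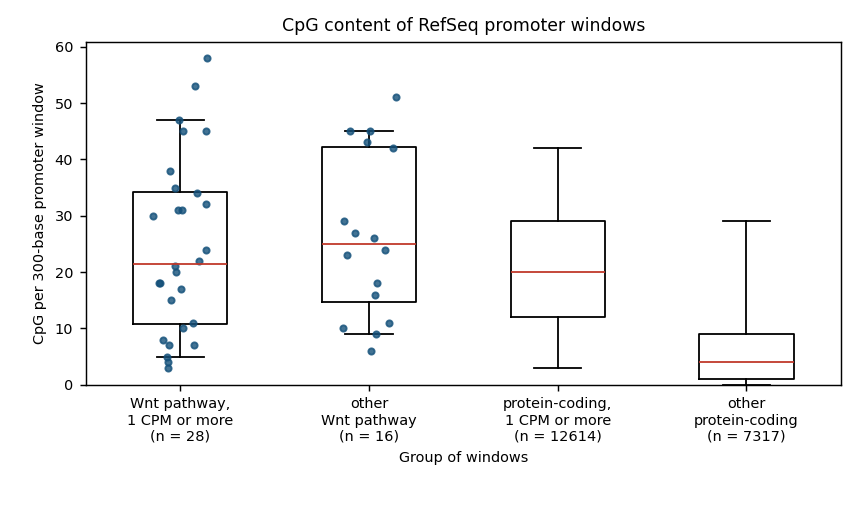
CpG count per 300-base promoter window for Wnt pathway genes at 1 CPM or more in both libraries and for the other Wnt pathway genes (points are windows), and for all protein-coding genes split the same way; boxes span the quartiles with the median in red and whiskers the 5th to 95th percentile. The medians are 21.5, 25, 20 and 4 CpG. Some genes enter with several windows, so the order of 21.5 and 25 does not rank the genes.

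The TCF/LEF motif CTTTGAT was looked for on both strands of the same windows (its reverse is ATCAAAG). It was present in 2 of the 44 windows, or 4.55%, 1 of Wnt5b and 1 of Wnt11, against 3.16% of 19931 windows of protein-coding genes. The Axin2 window, on chromosome 11, held none.

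Reads of A and B were compared gene by gene with an exact binomial test (two-sided). With p-values adjusted by Benjamini-Hochberg over 18198 genes with at least 10 reads, 0 of the 43 pathway genes tested were called at 0.05, against 2.29% of all genes tested, so the count is near what that share gives for so few genes. The same test gave 4 of 43 at an unadjusted p under 0.05, against 12.4% of all genes. The exact test of edgeR, given a coefficient of variation of 0.1, called 0 of the 43 and 1 of all 18198 genes. With so few calls over all genes, that 0 says little of the pathway genes. The binomial test compares 2 libraries of 1 group against counting error and holds no estimate of the spread between cultures. The median log2 ratio of A over B was -0.02 for the 43 genes and 0.00084 for all genes tested. Of the 32 pathway genes with at least 100 reads 29, or 90.6%, differed by less than 1.25-fold, and 96.5% of all 13551 genes with as many reads did.

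The 4 genes with an unadjusted p under 0.05 were Dkk3, Lgr4, Wls and Wnt7b. Dkk3 had a log2 ratio of -0.39 (95% interval -0.67 to -0.12; Benjamini-Hochberg adjusted exact binomial p = 0.105). Wls had a log2 ratio of -0.45 (interval -0.90 to -0.02; adjusted exact p = 0.354) and Lgr4 one of -0.08 (interval -0.14 to -0.02; adjusted exact p = 0.135). Wnt7b, with 0.17 (interval 0.0058 to 0.34; adjusted exact p = 0.367), was the gene of these with the higher value in A. The intervals are exact binomial ones and cover counting error only.

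Fibroblasts are known to make several Wnt antagonists too. Over the fibroblast list, 9 of 12 tested genes had a higher value in A, with a median log2 ratio of 0.26, and 4 matrix genes, Col3a1, Col1a2, Dcn and Postn, were called higher in A, at a background of 0.989% of all genes tested called in that direction. In edgeR's exact test, as above, Col3a1 alone of these was called (adjusted p = 0.0354), and with at least 50 reads required Postn was not tested. Of the 8 ES cell markers, Dppa5a and Tdgf1 were called lower in A (background 1.3%), with log2 ratios of -0.07 and -0.05, and neither was called by edgeR's exact test, nor Tdgf1 with the GC trend removed (adjusted exact binomial p = 0.248). Col3a1 had 47 reads in A and 14 in B and Dcn 51 and 24. The antagonists had log2 ratios of 0.03 for Sfrp1, 0.10 for Sfrp2 and -0.0015 for Sfrp4, each with an interval that spans 0, and Dkk3 had the higher value in B. The part of such cells in the antagonists' levels was not tested. The log2 ratio also moved with GC content, and its median was -0.04 over the 20% of genes lowest in GC and 0.06 over the 20% highest in GC. Median GC content was 53.9% for the 53 genes and 50.3% for protein-coding genes tested. The part of GC content in the ratios of single genes was not tested beyond the alternative with the trend removed.

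**Figure D5:**
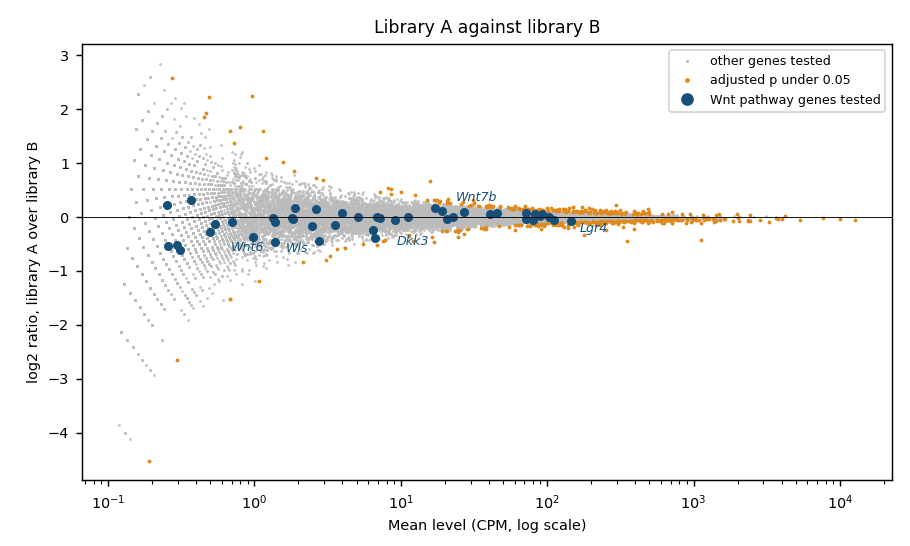
Log2 ratio of library A over library B against the mean level in CPM (log scale) for all 18198 genes tested (grey), genes with an adjusted p under 0.05 (orange) and the 43 Wnt pathway genes tested (blue). None of the blue points is among the called genes, and those with at least 100 reads lie between -0.46 and 0.17.

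Other lists of the pathway gave 1 call. Tnks2 had 13100 reads in A and 19662 reads in B and a log2 ratio of -0.06 (Benjamini-Hochberg adjusted exact binomial p = 0.0138). That call was lost with the GC trend removed (adjusted exact binomial p = 0.507) and with edgeR's exact test (adjusted p = 1). The lists of nuclear partners, planar polarity genes, modulators and β-catenin targets had 0 calls among 12, 14, 12 and 15 genes tested, at the same background of 2.29%.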

How the data were processed

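Poly-A RNA from 1 group of Drosha knockout ES cells was sequenced as 2 libraries, reverse-stranded per the labels. Each deposited file lists whole-number counts of reads per gene, with Ensembl IDs, per the file headers. Named without settings in the submitters' processing notes were mm10, STAR 2.4.2a and featureCounts 1.4.5-p1 (annotation release and strand option: not given in the sources used here).

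Symbols, exon lengths and 3′ UTRs (of the transcript with the longest coding sequence) came from GENCODE M21 on GRCm38, the build called mm10, which matched 97.5% of 43629 gene IDs. No row lacked a gene ID. CPM were scaled by TMM over genes with at least 10 reads (edgeR 4.0.16, R 4.3.3), and TPM used merged exon lengths. Library A was tested against B by a two-sided exact binomial test (scipy 1.17.1, Python 3.11.15) with Benjamini-Hochberg adjustment over all genes with at least 10 reads; log2 ratios add 0.5 reads. The quasi-likelihood test of edgeR needs replicates of 2 groups and was not used. The binomial test was also run on simulated counts that varied by counting error alone. That run cannot show how the test behaves with a spread between libraries.

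Named were all genes at 1 CPM or more in both libraries, the 5 highest below, those with 0 reads and the 3 highest of each further list; other names were added after their values were seen. The members and lists were chosen with earlier results of these data known. Alternatives were total counts and DESeq2 1.42.0 scaling, filters of 1 and 50 reads, thresholds of 0.5 and 5 CPM and 1 TPM, longest-transcript lengths, edgeR's exact test, removal of the GC trend in 20 bins, other UTR and match definitions, and each library alone.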

Additional observations from a re-analysis of the deposited data

How the results depend on the processing

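The count of 34 genes at 1 CPM or more in both libraries was 34 with total counts and with DESeq2 size factors, 37 at 0.5 CPM, 30 at 1 TPM and 23 at 5 CPM, and 34 to 35 with 1 library left out. The median of 1.54 TPM was 1.67 with the length of the longest transcript, and 1.42 to 1.53 with 1 library left out. With the longest-transcript length, chosen for single genes after seeing the data, 4 of 50 genes with reads moved by over 1.5 times, Wls, Lef1, Tcf7l2 and Lgr5, the ratios ran from 0.81 to 2.002, and the first 5 genes kept their order. The 14 genes with a miR-290 and miR-302 match stayed at 14 over all annotated 3′ UTRs and were 5 with the 8-base match, which by construction is stricter. The 0 calls among the pathway genes were 0 under all 6 alternatives tried, while the calls over all genes were 417 under the main settings, 144 with the GC trend removed and 1 with edgeR's exact test; the cause was not tested. All-gene calls lower in A were 56.8% under TMM, 42.7% with total counts and 62.0% with DESeq2 size factors. Of the 43 tested pathway genes 16 were higher and 27 lower in A under TMM, against 19 and 24 with total counts. The log2 ratios of Dkk3, Lgr4, Wls, Wnt7b and Tcf7l2 kept their sign and stayed uncalled in the 30 alternatives computed for them. No paired analysis was possible because there was 1 group. With 1 library left out no ratio remains, so none was computed.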
